A study of Homo sapiens with 20 samples.

Results

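The genes described here are 50 named genes of the cell cycle and of DNA replication, taken as a fixed list of symbols from the 43366 RefSeq genes in the count table. All 50 were found. They cover 10 genes of origin licensing and the replicative helicase, 4 of the replication fork and nucleotide supply, 7 G1/S regulators, 10 G2/M kinases, cyclins and transcription factors, 6 of the spindle checkpoint and the anaphase-promoting complex (APC/C), 10 of chromosomes, kinetochores and spindle motors, and 3 CDK inhibitors. The RNA came from U2OS, a human osteosarcoma cell line that is known to have silenced CDKN2A. The study compared 5 WT clones with 5 clones labelled ZBTB48 KO, each untreated (none) or given IFNγ at 250 U/ml during 24 h, to ask how ZBTB48, a zinc finger protein of telomeres and promoters, affects the interferon response. Each of the 4 groups thus held 5 libraries, and each library came from 1 clone of an established line. All 20 cultures shared the U2OS background, and the labels name no allele or agent beside ZBTB48 and IFNγ.

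Cells pass from G1 through S phase and G2 into mitosis, and each step has its own transcripts. In late G1 the MCM helicase is loaded onto origins by CDC6 and CDT1, and E2F factors raise the genes of S phase. Later, FOXM1, MYBL2 and the DREAM complex control a mitotic group that includes the cyclin B, PLK1 and CDC20 genes, whose transcripts are highest in G2 and M. Interferons are known to slow the growth of many cell types, and CDKN1A and CDKN1B code for the CDK inhibitors p21 and p27.

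Total counts ranged from 46652288 to 72952859 per library. Values are CPM, counts scaled to a common library size by TMM, and 3 counts, taken as the floor, came to between 0.0404 and 0.0609 CPM. IRF1, an early IFNγ target used as a check of the treatment, stood at 15.4 to 19.3 CPM in untreated and 487 to 628 CPM in treated WT libraries, and at 9.74 to 27.4 and 294 to 691 CPM in the libraries labelled KO. ZBTB48 mRNA lay below every WT library in 4 clones labelled KO. In KO clone 3 it stood at 11.3 CPM untreated and 15.8 CPM treated, above every WT library of the same treatment. The mRNA level there thus did not show the loss that the label names. MTFP1, a known ZBTB48 target, was at 0.223 to 0.938 CPM in all libraries labelled KO, clone 3 included, and at 27.2 to 53.04 CPM in the WT libraries. Over 14752 genes, treated and untreated libraries of one WT clone deviated together (Pearson's r 0.77 to 0.88), as did those of KO clones 1, 2 and 3 (0.76, 0.84 and 0.69). The libraries labelled KO clones 4 and 5 did not (0.02 and 0.08), while the untreated library of each correlated with the treated library of the other (0.76 and 0.83). Changes within KO clones are therefore given as labelled, with these numbers exchanged, and without both clones. Of the 9 mesenchymal and osteoblast markers, 8 averaged over 1 CPM in every group. VIM stood at 1241 to 1810 CPM and RUNX2 at 18.4 to 92.0 CPM, while COL1A2 had 0 to 56 counts per library. Among 7 markers of other cell types, PTPRC was below 1 CPM in every library. Others were not absent, as KRT18 had 8101 to 33546 counts and EPCAM 7 to 660.

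The 50 genes differed widely in level. Per kilobase of exon, and averaged over the 4 groups, the level was highest for MYBL2 (153 CPM per kb), a mitotic transcription factor, and PCNA (150.1), the sliding clamp of the fork, followed by TOP2A (136), which untangles sister DNA. Among the genes above the floor it was lowest for CCNE2 (4.17 CPM per kb), a G1/S cyclin, and CENPE (5.02), a kinetochore motor. CDKN2A, which codes for p16 and p14ARF, had 0 or 1 count in each of the 20 libraries, all under the floor, and was not tested. The other 49 genes passed the filter on low counts in every comparison, with 391 to 63516 counts per library. Their spread between clones, the SD of log2 CPM pooled over the groups, had a median of 0.30. It was widest for CDKN1B (0.83), CDKN1A (0.60) and KIF20A (0.50), and narrowest for AURKB (0.15) and TTK (0.17). Exons of 16 tested members overlap those of another gene, KIF20A with CDC23 and PLK1 with ERN2 among them. The neighbour is on the other strand, except for BUB1B, which shares exons with the readthrough gene BUB1B-PAK6. The strand setting of the counting was not stated, so part of such a count may belong to the neighbour.

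**Figure D1:**
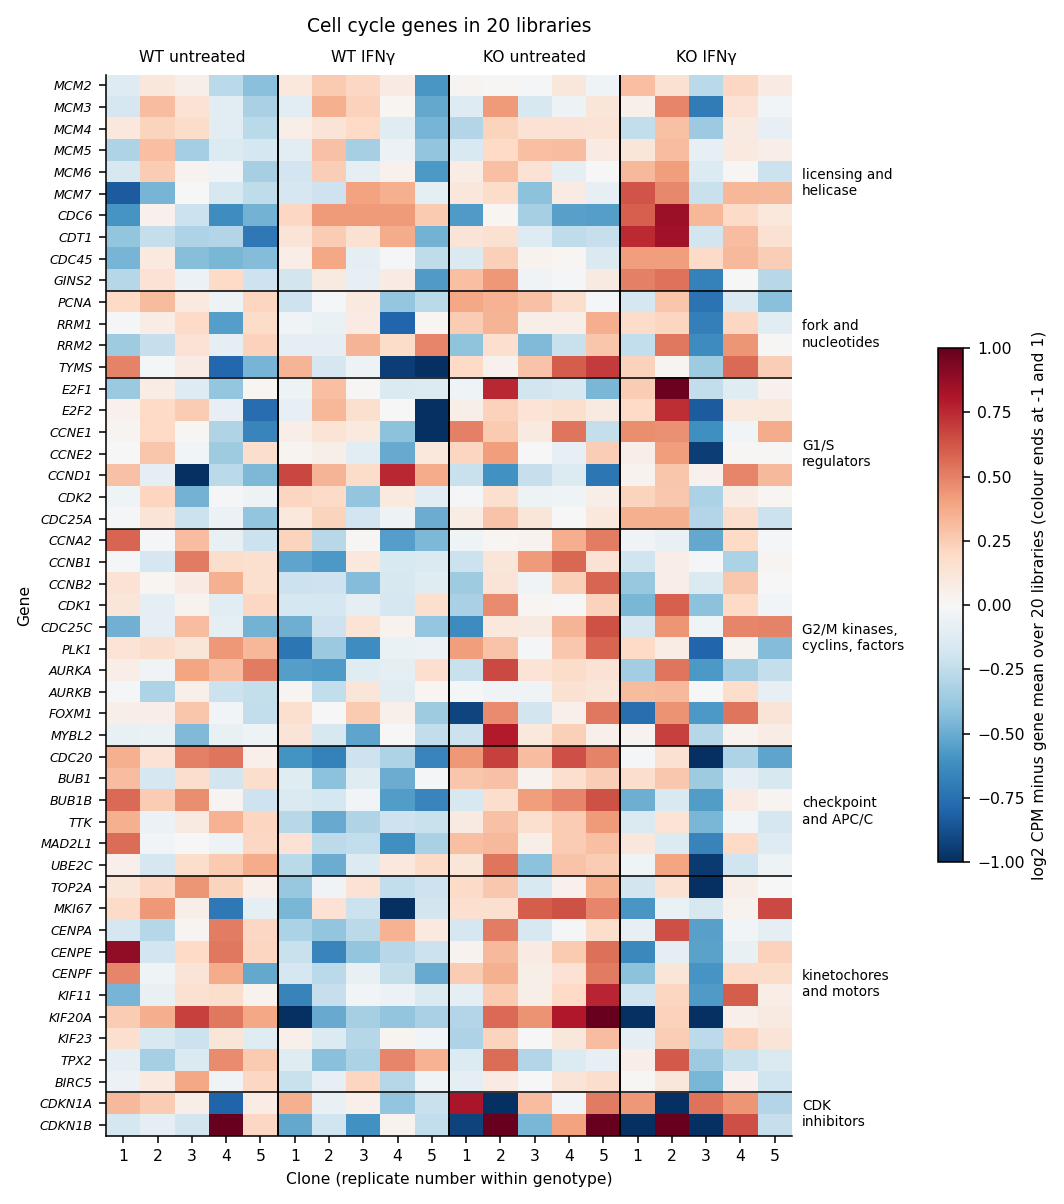
Each row is a gene and each column a library, with the group above and the clone number below, and colour gives log2 CPM minus the gene's mean over the 20 libraries. The mitotic rows are mostly blue in treated WT clones and in treated KO clone 3, which was the lowest of its group for 36 of 49 genes, and CDKN1B and CDKN1A differ most between clones.

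Upon IFNγ treatment of WT clones, 6 mitotic genes fell and 1 licensing gene rose. KIF20A, CDC20, CENPE, PLK1, TTK and CCNB2 were 1.29 to 1.92-fold lower, and CDC6 was 1.64-fold higher. None of the 49 tested genes passed the study's cut-offs, a more than 2-fold change at an adjusted p under 0.01, which 585 of 19522 tested genes (3%) did. DESeq2 with and without shrinkage also placed 0 there, and scaling to library totals placed 1. At an adjusted p under 0.05 and any fold, the members called were thus 1 of 49 upward and 6 of 49 downward, where 6.98% and 4.3% of all tested genes were called. At an unadjusted p under 0.05, 5 members were higher and 12 lower, beside 2621 and 2247 of the 19522 tested genes. The median log2 fold change of the 49 was -0.08, beside -0.03 over all tested genes, and 34 were lower in treated clones. Scaling to library totals moved the median of all genes to -0.10 and that of the members to -0.15, with 39 lower, and called 1151 genes upward and 1105 downward, where TMM called 1363 and 839. It called the same number of members in each direction. In bulk RNA, fewer cells in a phase of the cycle and less RNA per cell cannot be told apart.

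KIF20A (chr5:138179112-138187723, plus strand), a kinesin that acts at the central spindle in cytokinesis, had the largest fall of any member. Its untreated WT libraries, clones 1 to 5, held 93.3, 101, 126, 113 and 102 CPM, and the treated libraries of the same clones 36.7, 55.3, 62.4, 59.6 and 62.6 CPM. Every treated library lay below every untreated one, and clone 1 was lowest in both groups. The means were 107 ± 12.8 and 55.3 ± 10.8 CPM (SD, n = 5), with log2 fold change -0.94 (SE 0.15, adjusted p = 0.00234). CDC20 (chr1:43358981-43363203, plus strand), which activates the APC/C at anaphase onset, held 235, 203, 261, 266 and 191 CPM untreated and 122, 115, 159.6, 148 and 117 CPM treated, with log2 fold change -0.79 (SE 0.14, adjusted p = 0.00372). The groups again did not overlap, and each clone was lower after treatment. KIF20A and CDC20 kept an adjusted p under 0.05 in all 13 settings, 5 of which left out a clone.

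TTK (chr6:80004649-80042527, plus strand), the kinase that sets the spindle checkpoint, held 61.4, 46.0, 51.0, 61.1 and 55.7 CPM in untreated and 39.5, 33.7, 38.9, 41.5 and 41.1 CPM in treated WT clones, with log2 fold change -0.48 (SE 0.11, adjusted p = 0.0193). PLK1 (chr16:23678889-23690367, plus strand), a kinase of mitotic entry and spindle assembly, held 105, 108, 104, 128 and 119.8 CPM untreated and 57.6, 73.8, 61.8, 90.8 and 91.3 CPM treated, with log2 fold change -0.57 (SE 0.15, adjusted p = 0.0282). Neither gene's groups overlapped, although the highest treated PLK1 value lay near the lowest untreated one. CENPE (chr4:103105811-103198343, minus strand), the motor that brings chromosomes to the metaphase plate, held 76.3, 36.1, 47.4, 59.5 and 47.8 CPM untreated and 35.3, 26.1, 31.4, 34.0 and 35.6 CPM treated, with log2 fold change -0.70 (SE 0.19, adjusted p = 0.0351). Untreated clone 2 exceeded the highest treated clone by under 1 CPM, and untreated clone 1 stood far above the others. CCNB2 (chr15:59105146-59125045, plus strand), a cyclin of the mitotic CDK1 kinase, averaged 116 ± 10.4 CPM untreated and 89.1 ± 7.26 CPM treated (SD, n = 5), with log2 fold change -0.36 (SE 0.10, adjusted p = 0.0386) and no overlap. For each of these 4 genes the two-sided exact permutation test gave p = 0.00794, the smallest that 5 against 5 libraries allow. With the clone as a block, a fit described below, the adjusted p was 2.61e-05 for TTK and 3.52e-05 for PLK1. For CENPE it was 0.000285 and for CCNB2 0.000207. In fits without the block these 4 calls depended on the clones and settings used, and each fit that left out a clone had no block. TTK was lost without clone 1 or 4 (adjusted p = 0.0877 and 0.0624). PLK1 was lost without clone 1, 2 or 3 (adjusted p = 0.0945, 0.106 and 0.0710). CENPE was lost without clone 1, 3, 4 or 5 (adjusted p = 0.099968, 0.0852, 0.121 and 0.0659). CCNB2 was lost whichever clone was left out (adjusted p = 0.126, 0.0939, 0.0909, 0.106 and 0.0709 without clones 1 to 5). Without the filter CCNB2 was lost too (adjusted p = 0.102), as in the fit over all 20 libraries (adjusted p = 0.114), and it passed in 6 of 13 settings.

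On the replication side, CDC6 (chr17:40287879-40304657, plus strand), which loads the MCM helicase onto origins, held 106, 164, 137, 104 and 115 CPM in untreated and 184, 214, 214, 214 and 191 CPM in treated WT clones. It rose in every clone, with log2 fold change 0.72 (SE 0.13, adjusted p = 0.00520) and no overlap, and passed in all 13 settings. CDT1, its partner in loading, averaged 93.4 ± 11.4 CPM untreated and 132 ± 26.4 CPM treated (SD, n = 5), with log2 fold change 0.51 (SE 0.15, adjusted p = 0.0544), and was higher in 5 of 5 treated clones. CCND1 (chr11:69641156-69654474, plus strand), the cyclin D1 that drives G1, held 393, 300.2, 158, 267 and 235 CPM untreated and 509, 407, 364, 541 and 416 CPM treated. It was higher in each of the 5 clones, but untreated clone 1 lay above treated clone 3, and its log2 fold change 0.74 (SE 0.22, adjusted p = 0.0503) missed the threshold. DESeq2 gave CCND1 an adjusted p of 0.0131.

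By role, all 6 checkpoint and APC/C genes were lower in treated WT clones. Their median was -0.43 on the log2 scale, and 2 were called. All 10 genes of chromosomes, kinetochores and motors had negative values (median -0.25), again with 2 calls, although TPX2 (-0.0041) and KIF23 (-0.02), a kinesin of the central spindle, lay near 0. Of the 10 G2/M kinases, cyclins and factors, 7 were lower (median -0.21, 2 calls). Values near 0 were seen for the transcription factors FOXM1 (0.02) and MYBL2 (0.0070), and AURKB, the kinase of the chromosome passenger complex, was at 0.12. Of the 10 licensing and helicase genes, 7 were higher (median 0.11, 1 call), or 5 with library totals, with MCM7 at 0.41 while the other 5 MCM genes lay between -0.04 and 0.17. Of the 4 fork and nucleotide genes none passed. PCNA averaged 230.5 ± 21.5 CPM untreated and 186 ± 25.2 CPM treated (SD, n = 5), with log2 fold change -0.29 (SE 0.11, adjusted p = 0.129). MKI67, which codes for the proliferation marker Ki-67, averaged 279.7 ± 75.2 and 222 ± 65.1 CPM, with log2 fold change -0.32 (SE 0.24, adjusted p = 0.462). The G1/S regulators other than CCND1 lay between -0.08 (CCNE2) and 0.17 (E2F1).

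**Figure D2:**
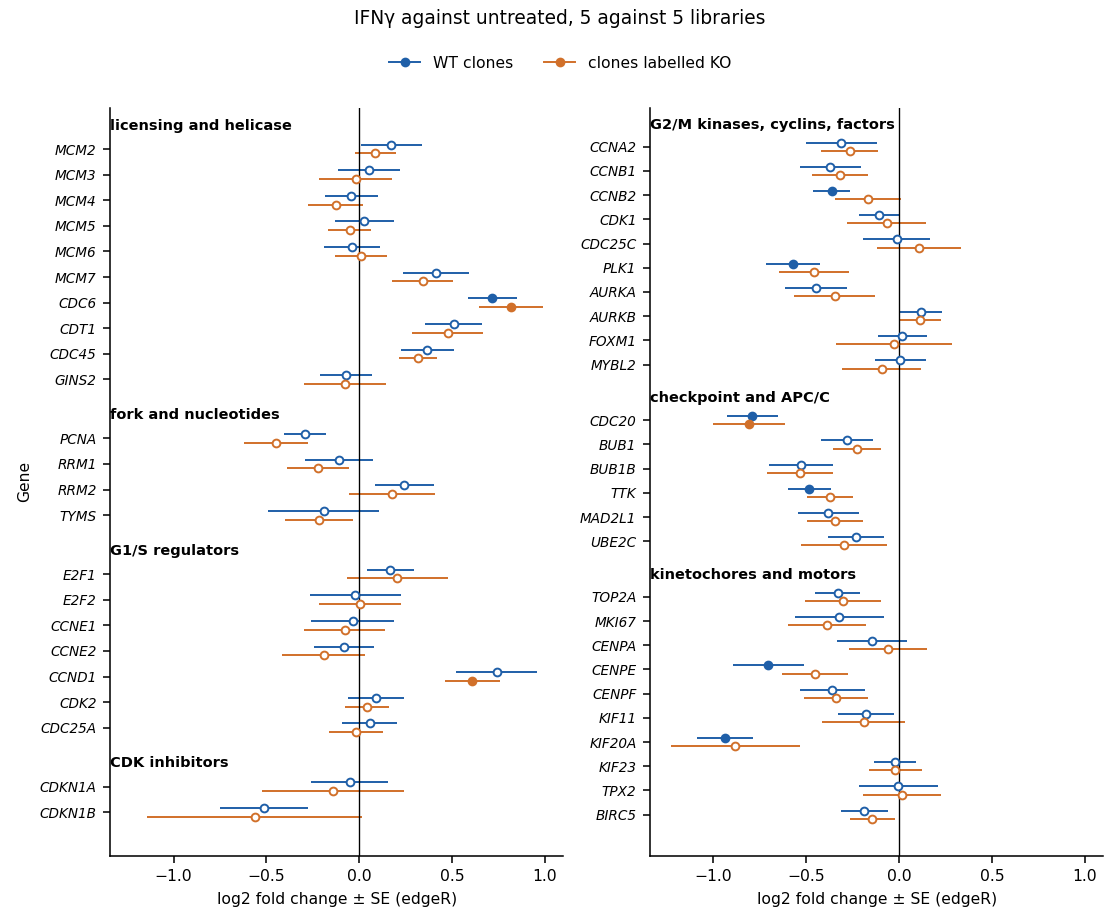
Points give the log2 fold change of treated against untreated libraries with its SE for 49 genes by role, blue for WT clones and orange for clones labelled KO, and filled points passed an adjusted p under 0.05. Checkpoint genes and most kinetochore genes lie left of 0 in both genotypes, and CDC6, CDT1, CDC45, MCM7 and CCND1 lie right of it.

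Since each WT clone was measured with and without IFNγ, the comparison was fitted again with clone as a replicate block. That fit called 29 of 49 members, 7 upward and 22 downward, where 22.9% and 24.1% of all tested genes were called. Upward were CDC6, CDT1, CDC45, MCM7, RRM2, CCND1 (block adjusted p = 0.00342) and E2F1. Downward were all 6 checkpoint genes, 8 of 10 genes of chromosomes, kinetochores and motors, 5 of 10 G2/M genes, PCNA, TYMS and CDKN1B. PCNA had a block log2 fold change of -0.30 (adjusted p = 0.00199) and MKI67 of -0.33 (adjusted p = 0.00279), and both were lower in 5 of 5 treated clones. The sign-flip test within clones gave p = 0.0625 for each gene that moved one way in all 5 clones (two-sided, exact), the smallest that 5 clones allow.

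In clones labelled KO, IFNγ raised CDC6 and CCND1 and lowered CDC20 at an adjusted p under 0.05. Of 49 members, 2 were called upward and 1 downward, where 5.41% and 2.47% of 19385 tested genes were called. None passed the study's cut-offs, which 379 genes (1.96%) did, nor did any with DESeq2. At an unadjusted p under 0.05, 4 members were higher and 8 lower, beside 2540 and 2008 of all tested genes. CDC6 held 108, 162, 127, 109 and 109 CPM untreated and 240.4, 289.8, 200.3, 182 and 171 CPM treated, clones 1 to 5, with log2 fold change 0.82 (SE 0.17, adjusted p = 0.0152). CCND1 held 275, 211, 273, 292 and 194 CPM untreated and 329, 389.8, 331, 452 and 402 CPM treated, with log2 fold change 0.61 (SE 0.15, adjusted p = 0.0276). Neither gene's groups overlapped. CDC20 held 249, 295, 228, 287 and 259.9 CPM untreated and 182, 205, 90.9, 148 and 128 CPM treated, with log2 fold change -0.81 (SE 0.19, adjusted p = 0.0281), and treated clone 3 was by far the lowest. All 3 calls were lost in some of the fits that left out a clone, which had fewer libraries and no block. The log2 fold change in these fits ranged from 0.76 to 0.86 for CDC6 and from 0.52 to 0.72 for CCND1. For CDC20 it ranged from -0.90 to -0.72. Without clone 1 or without clone 4 no member passed, without clone 3 only CDC20 did and without clone 5 only CDC6. The adjusted p of CDC6 was then 0.0771, 0.0591 and 0.0655 without clones 1, 3 and 4, and that of CDC20 0.0734, 0.135 and 0.119 without clones 1, 4 and 5. CCND1 was lost whichever clone was left out (adjusted p = 0.0554, 0.0632, 0.0722, 0.0840 and 0.118 without clones 1 to 5).

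KIF20A had a log2 fold change in KO clones close to that in WT clones, but with a wider spread. Untreated KO libraries held 63.9, 116, 107, 137 and 168 CPM and treated ones 33.4, 91.9, 31.5, 81.1 and 83.4 CPM, with log2 fold change -0.88 (SE 0.35, adjusted p = 0.152). Treated KO clones 1 and 3 stood far below the other 3, and untreated clone 1 lay below 3 of the treated libraries. PCNA averaged 244 ± 26.003 CPM untreated and 179 ± 46.9 CPM treated (SD, n = 5), with log2 fold change -0.45 (SE 0.17, adjusted p = 0.140). MKI67 averaged 369 ± 59.2 and 282 ± 93.1 CPM, with log2 fold change -0.39 (SE 0.21, adjusted p = 0.298), and the treated library of clone 5 was its highest of all 20. With the clone as a block MKI67 had an adjusted p of 0.0712 as labelled, 0.0159 with clones 4 and 5 exchanged and 0.0358 without them. The median log2 fold change of the 49 members was -0.13, beside -0.03 over all genes, and 35 were lower. Without KO clone 3 the median was -0.04 and 26 were lower, since treated KO clone 3 was the lowest of its group for 36 of 49 members.

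With the clone as a block, 15 members were called in KO clones as labelled, 5 upward and 10 downward, where 11.1% and 9.95% of all genes were. With the treated libraries of clones 4 and 5 exchanged, 22 were called, 5 upward and 17 downward, beside 17.9% and 18.8% of all genes. With both clones left out, 6 were called, 1 upward and 5 downward, beside 7.68% and 6.24%. The 5 upward genes were CDC6, CDT1, CDC45, MCM7 and CCND1 in both 5-clone fits. All 5 were among the 7 called upward in WT clones, and all 10 called downward as labelled were among the 22 called downward there. In WT clones the block called 22.9% of all tested genes upward and 24.1% downward. The overlap between genotypes was not counted over all genes, so it is not shown to be particular to the members. CDC20, KIF20A, PLK1, TTK, CENPE, BUB1B and MAD2L1, the last a checkpoint protein that binds CDC20, are among the 10 called downward as labelled. KIF20A then had an adjusted p of 0.0111 as labelled and 0.00528 exchanged, and PCNA of 0.0389 and 0.0185. In the 3-clone block CDC6 was called upward and CDC20, CENPE, CENPF, MKI67 and CDKN1B downward, while KIF20A (adjusted p = 0.0696) and PCNA (adjusted p = 0.0928) were not.

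**Figure D3:**
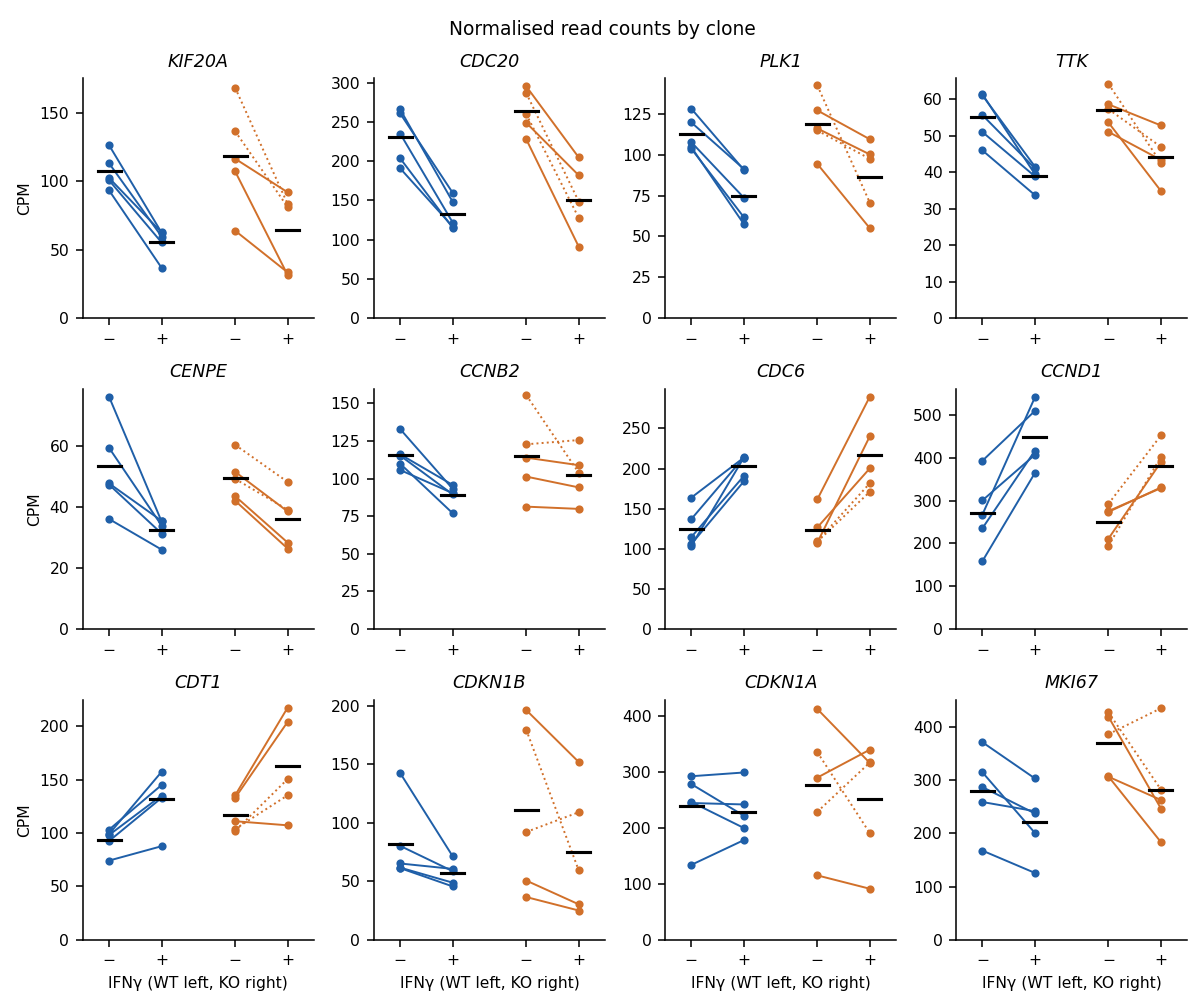
Each panel gives the CPM of a gene in the 20 libraries, with a line joining the untreated (−) and treated (+) library of a clone, blue for WT and orange for KO, and black bars for the group means. Dotted lines mark KO clones 4 and 5, whose pairing is doubtful, and the genes of the top row are lower and CDC6 and CCND1 higher with treatment in every clone as labelled.

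To see whether the libraries moved as a whole, the median deviation of the 26 mitotic genes and of the 14 licensing, helicase, fork and nucleotide genes from their means was taken in each library. These are descriptions of the same values as above, and carry no test. In the 5 WT clones the mitotic median changed by -0.35, -0.22, -0.29, -0.34 and -0.33 on the log2 scale from untreated to treated. The replication median changed by 0.16, 0.09, 0.08, 0.18 and -0.14 in the same clones. In WT clone 5 both medians were thus lower after treatment, and in clones 1 to 4 the mitotic one alone. In KO clones the mitotic median changed by -0.06, -0.11, -0.57, -0.19 and -0.40 and the replication median by 0.22, 0.21, -0.32, 0.16 and 0.0019. KO clone 3, whose ZBTB48 mRNA was not low but whose MTFP1 was, had the largest change in both, and a link was not tested. The mitotic median minus the replication median was lower after treatment in 5 of 5 WT clones (-0.51 to -0.19) and in 5 of 5 KO clones (-0.40 to -0.25). With KO clones 4 and 5 exchanged, their differences were -0.51 and -0.25.

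The promoters of genes called in the fits above are shown because known elements of S phase and mitotic promoters can be read in them. E2F sites are a mark of S phase promoters, and the cell cycle homology region (CHR), often near CCAAT boxes, is a mark of mitotic ones. The RefSeq table on GRCh38.p14 held promoters of 39 of the 50 genes, 51 promoters in all. These are the 120 bases before the start site of 7 genes, 5′ to 3′ on the gene's strand, in lower case with matches in capitals.
CDC20 (chr1:43358861-43358980, plus strand): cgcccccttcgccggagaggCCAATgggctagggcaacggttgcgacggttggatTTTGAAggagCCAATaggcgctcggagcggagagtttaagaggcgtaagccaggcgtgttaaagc
KIF20A (chr5:138178992-138179111, plus strand): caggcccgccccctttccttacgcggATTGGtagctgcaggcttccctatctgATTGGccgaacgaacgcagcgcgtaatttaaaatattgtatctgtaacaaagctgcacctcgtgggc
PLK1 (chr16:23678769-23678888, plus strand): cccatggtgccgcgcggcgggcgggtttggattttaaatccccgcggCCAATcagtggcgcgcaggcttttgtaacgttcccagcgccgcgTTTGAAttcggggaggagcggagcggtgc
CCNB2 (chr15:59105026-59105145, plus strand): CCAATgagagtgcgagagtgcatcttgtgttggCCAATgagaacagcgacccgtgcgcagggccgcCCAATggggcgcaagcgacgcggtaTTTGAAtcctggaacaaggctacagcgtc
CENPE (chr4:103198344-103198463, minus strand): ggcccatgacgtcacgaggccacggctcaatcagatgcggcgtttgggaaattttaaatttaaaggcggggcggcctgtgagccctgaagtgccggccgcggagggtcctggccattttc
CDC6 (chr17:40287759-40287878, plus strand): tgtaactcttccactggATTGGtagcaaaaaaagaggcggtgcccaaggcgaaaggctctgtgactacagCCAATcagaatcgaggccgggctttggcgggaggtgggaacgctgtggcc
CDT1 (chr16:88803669-88803788, plus strand): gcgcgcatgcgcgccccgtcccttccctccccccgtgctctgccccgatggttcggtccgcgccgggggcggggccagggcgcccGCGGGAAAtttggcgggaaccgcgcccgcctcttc
The capitals mark matches, each searched on both strands, and no match overlaps another in these bases. The CHR letters searched were TTTGAA and its variant TTCGAA. The CCAAT box was searched by its name's letters. The E2F letters were TTTCCCGC with 3 variants, namely TTTCGCGC and then TTTGCCGC and also TTTGGCGC. CDC20, PLK1 and CCNB2, which fell in WT clones, held CHR and CCAAT matches in these bases. KIF20A and CDC6 held CCAAT matches, CDT1 an E2F match, and in CENPE none of these letters occurred. Only these exact letters were searched. The letters tttggcgg in CDC6 and CDT1 differ from TTTGGCGC in the last base alone, and are not marked or counted.

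In the 250 bases before the start, a CHR match was found in 27.5% of the members' promoters and in 14.3% of the 35116 promoters of the table. The share was 23.5% against 2.79% for E2F, and 72.5% against 32.01% for CCAAT. All 13 genes with a CHR match had a negative log2 fold change with IFNγ in WT clones, with a median of -0.18, and the median in KO clones was -0.19. They include 2 replication genes, MCM6 and RRM1, beside mitotic genes such as BUB1B, TOP2A and KIF11. Of the 12 genes with an E2F match, 7 were lower and 5 higher in WT clones, with a median of -0.03. Of the 29 with a CCAAT match, 21 were lower and 8 higher, with a median of -0.15. Among all 49 tested members, 34 were lower. Matches are letters in a window and were not tested against the changes.

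The other genes of these pathways, from lists of 45 replication, 49 mitotic and 31 regulator genes, were counted in the same fits. Beside them, 6.98% of all tested genes were called up and 4.3% down in WT clones, 22.9% and 24.1% with the block, and 5.41% and 2.47% in KO clones. Of the 45 other replication genes, 34 were higher with IFNγ in WT clones (median 0.13; 29 with library totals), 3 called up and 1 down, and the block called 21 up and 3 down. RFC1, the large subunit of the clamp loader, averaged 139 ± 4.43 CPM untreated and 216 ± 10.3 CPM treated (SD, n = 5), a log2 fold change of 0.65 (adjusted p = 0.000406). GINS1, a helicase subunit, was the gene called down (-0.43, adjusted p = 0.0456). Of the 49 other mitotic genes, 35 were lower (median -0.16), with 6 called down and 2 up, and the block called 26 down and 7 up. ANLN, a scaffold of the cytokinetic ring, fell by 0.62 on the log2 scale (adjusted p = 0.00474), and CDCA3 by 0.78 (adjusted p = 0.00795). CKS1B, a CDK subunit that also acts with SKP2, rose by 0.63 (adjusted p = 0.00134). In KO clones 31 of 45 replication genes were higher, 4 of them called, and 33 of 49 mitotic genes were lower, 2 called down and 1 up. Of 30 tested regulators, 2 were called up and 1 down in WT clones. SKP2, the ubiquitin ligase subunit that targets p27, averaged 74.8 ± 7.26 CPM untreated and 35.3 ± 7.04 CPM treated (SD, n = 5), with a log2 fold change of -1.07 (adjusted p = 0.000611). E2F7, a repressor among the E2F genes, rose by 0.78 (adjusted p = 0.0107). In KO clones no regulator passed without the block, and 17 of 30 were higher. SKP2 there held 65.9, 121, 76.2, 80.4 and 105 CPM untreated and 22.7, 68.3, 15.4, 61.4 and 39.9 CPM treated, lower in 5 of 5 clones, with a log2 fold change of -1.11 (SE 0.37, adjusted p = 0.0959). Its block adjusted p was 0.0123 as labelled, 0.00569 exchanged and 0.0295 without clones 4 and 5. The difference between the SKP2 responses of WT and KO clones was 0.03 (SE 0.41).

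CDKN1A (chr6:36676463-36687332, plus strand) did not move one way with IFNγ. It held 293, 279, 245, 134 and 247 CPM in untreated and 299, 222, 242, 178 and 200.1 CPM in treated WT clones, with log2 fold change -0.05 (SE 0.21, adjusted p = 0.923). In KO clones it held 413, 115, 290.1, 229 and 336 CPM untreated and 316, 91.3, 340.1, 317 and 191 CPM treated, with log2 fold change -0.14 (SE 0.38, adjusted p = 0.875). The groups overlapped widely, and clone 2 was the lowest KO clone in both. CDKN1B (chr12:12717368-12722369, plus strand) held 61.7, 65.2, 61.3, 142 and 80.2 CPM in untreated and 48.8, 60.6, 45.6, 71.4 and 58.6 CPM in treated WT clones, with log2 fold change -0.51 (SE 0.24, adjusted p = 0.211) and a block adjusted p of 0.0132. In KO clones it held 36.5, 196, 50.6, 92.1 and 179 CPM untreated and 25.0, 152, 30.3, 109 and 59.3 CPM treated, with log2 fold change -0.56 (SE 0.58, adjusted p = 0.618). The block gave CDKN1B in KO clones an adjusted p of 0.102 as labelled, 0.000279 with clones 4 and 5 exchanged (block log2 fold change -0.60) and 0.0272 without them (-0.55). Untreated KO clones 2 and 5 thus had over 3 times the CDKN1B of clones 1 and 3.

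Immediate-early genes and cell type markers also differed between treated and untreated clones. Of 12 immediate-early genes, 2 were called up and 3 down with IFNγ in WT clones. FOS fell by 2.99 on the log2 scale in WT (adjusted p = 0.000411) and by 2.32 in KO clones (adjusted p = 0.00419). None of 6 YAP target genes was called in either genotype. Of the mesenchymal and osteoblast markers, ALPL rose and THY1 fell in WT clones and THY1 fell in KO clones, and their summed level was 8525 to 17389 CPM in untreated and 6637 to 16554 CPM in treated WT libraries. The summed immediate-early level was 2887 to 4345 CPM in untreated and 2428 to 2967 CPM in treated WT libraries, and 2103 to 5818 and 2148 to 3238 CPM in KO libraries. The 7 markers of other cell types, mostly KRT18, summed to 169.8 to 294 CPM untreated and 209.7 to 466 CPM treated in WT libraries, and to 283 to 389 and 236 to 544 CPM in KO libraries. None of the 5 that could be tested was called. The part of these differences in the changes of the cell cycle genes was not tested.

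Whether WT and KO clones responded differently to IFNγ was tested as an interaction over all 20 libraries. No member was called, and neither was any of 21052 tested genes (0%). At an unadjusted p under 0.05 there were 0 members and 86 genes, and with DESeq2 0 members and 115 genes. With the clone as a block no member passed either. At an unadjusted p under 0.05 the block then held 0 members and 317 genes as labelled. With KO clones 4 and 5 exchanged it held 1 member, lower, beside 304 genes that were lower. The largest differences, WT response minus KO response, were CENPE (-0.27, SE 0.26), CCNB2 (-0.21, SE 0.20) and PCNA (0.14, SE 0.21), each with an adjusted p of 0.999993. For CCND1 the difference was 0.11 (SE 0.27), for CDKN1A 0.07 (SE 0.46) and for MKI67 0.05 (SE 0.34). These standard errors are from the fit without the block, which took the libraries of a clone as independent. They leave room for differences as large as most of the responses themselves. The median difference over the members was -0.01, and its sign turned with the clone left out. Without KO clone 3 it was -0.08, with 41 of 49 negative, and without KO clone 2 it was 0.04, with 30 positive.

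Between untreated WT and KO clones no member was called, as were 6 of 19505 genes (0.0308%). CDT1 (-0.33) and CDC45 (-0.34), a subunit of the active helicase, were lower in WT clones at an unadjusted p under 0.05, where 2.21% of all genes were (adjusted p = 0.980 for both). DESeq2 called 0 members, with 3 lower in WT clones at an unadjusted p under 0.05, beside 532 genes. The log2 fold change, WT minus KO, was negative for 40 of 49 members with a median of -0.14, beside -0.0017 over all genes. TYMS, the enzyme that makes dTMP, held 256, 180.3, 193, 106 and 132 CPM in WT and 209, 188, 222, 277 and 297 CPM in KO clones, with log2 fold change -0.47 (SE 0.23, adjusted p = 0.980). WT clones 1 and 3 lay within the KO range and the other 3 below it. CDKN1B had log2 fold change -0.44 (SE 0.44, adjusted p = 0.982), and MKI67, at 279.7 ± 75.2 and 369 ± 59.2 CPM (SD, n = 5), had log2 fold change -0.41 (SE 0.20, adjusted p = 0.980). CDKN1A, CCND1 and PCNA were at -0.22 (SE 0.31), 0.11 (SE 0.22) and -0.09 (SE 0.11). Without KO clone 3, whose ZBTB48 mRNA is not low, 44 of 49 members were lower in WT with a median of -0.16. Without KO clone 2, 35 were lower with a median of -0.10, and none was called in either fit.

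After IFNγ the picture was alike, with no member called beside 4 of 19383 genes (0.0206%). CDC25C, a phosphatase that activates CDK1, held 15.0, 18.3, 23.2, 21.6 and 16.1 CPM in WT and 18.8, 28.7, 20.5, 29.7 and 29.7 CPM in KO clones, with log2 fold change -0.44 (SE 0.19, adjusted p = 0.996). CDC25C and CDC45 (-0.29) were the members lower in WT clones at an unadjusted p under 0.05, where 1.98% of all genes were. DESeq2 placed 2 there, beside 471 genes, and called 0. TYMS had log2 fold change -0.45 (SE 0.27, adjusted p = 0.996) and CDKN1B log2 fold change -0.40 (SE 0.43, adjusted p = 0.996). For CCND1 the value was 0.23 (SE 0.15), for MKI67 -0.35 (SE 0.26), for CDKN1A -0.14 (SE 0.30) and for PCNA 0.06 (SE 0.18). Of the 49 members 41 were lower in WT clones, with a median of -0.16 beside -0.02 over all genes. With 1 clone left out, from 31 (without KO clone 2, median -0.08) to 48 (without KO clone 3, median -0.23) were lower, and none was called. The untreated and treated libraries come from the same clones, so these counts are not independent of those above.

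**Figure D4:**
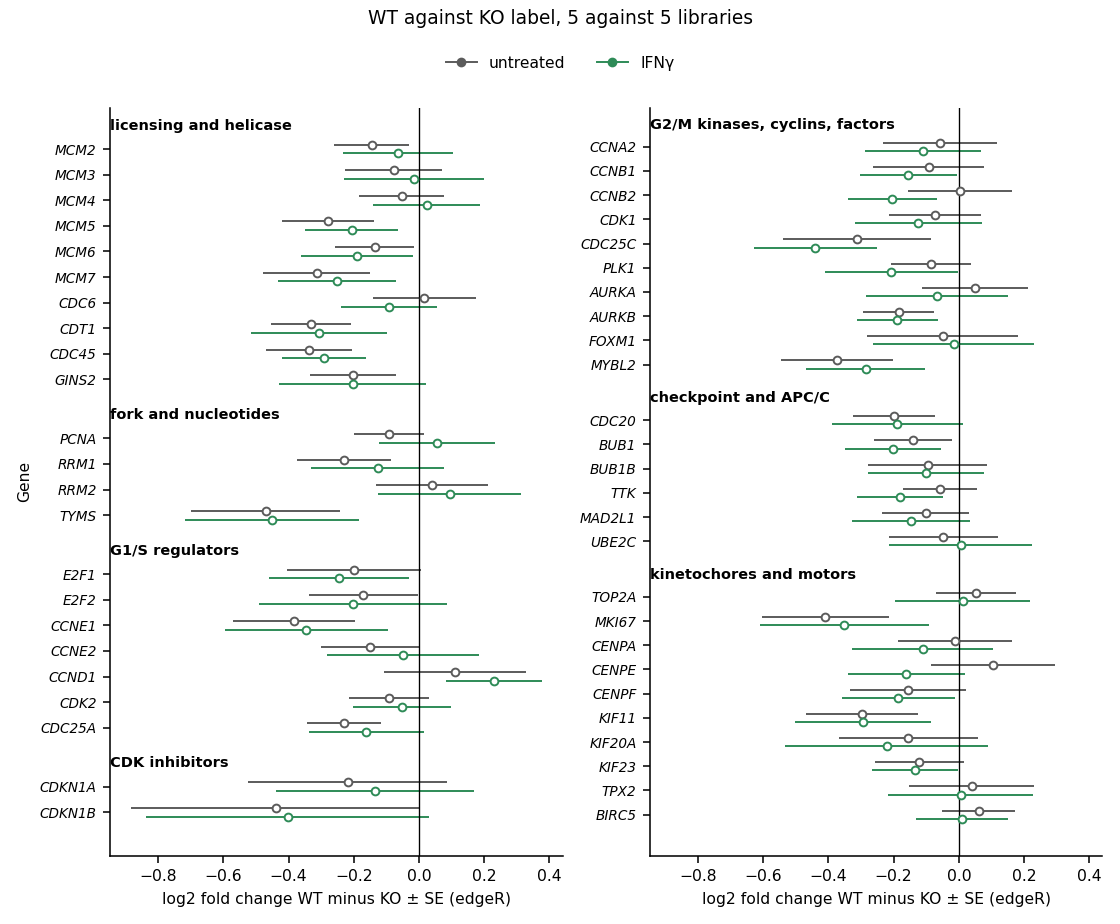
Points give the log2 fold change of WT against KO libraries with its SE for 49 genes by role, grey for untreated and green for treated libraries. All points are open, since none passed an adjusted p under 0.05, and 40 of 49 untreated and 41 of 49 treated values lie left of 0.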

How the data were processed

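RNA from 20 U2OS libraries (4 groups of 5 clones) was measured by poly(A) RNA-seq with a stranded kit. Per the study's methods and the submitters' processing notes, the authors aligned reads with STAR 2.7.9a to GRCh38 and deposited raw counts per gene, made with featureCounts 2.4.0. The strand setting is not given in the sources used here. The study tested with DESeq2 1.40.1. Here edgeR 4.0.16 in R 4.3.3 was used on the deposited counts (TMM scaling, filterByExpr, robust quasi-likelihood test, Benjamini-Hochberg adjustment over all tested genes), with the 10 libraries of each comparison and all 20 for the interaction. CPM values use TMM-scaled library sizes, and log2 CPM a prior count of 2. Exact permutation tests were two-sided. Fold changes are IFNγ against none, and WT against KO.

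Alternatives were DESeq2 1.42.0 with its size factors and shrinkage, library totals, no filter, all 20 libraries fitted together, a replicate block, and each clone left out. The block without KO clones 4 and 5 was added after the data were seen. The clone number in the labels pairs treated with untreated libraries of a clone (r 0.69 to 0.88 apart from KO clones 4 and 5), and WT with KO numbers do not correlate (r -0.23 to 0.24). Each clone is 1 replicate. For IFNγ, p-values of the fits without a block measure the spread between these clones. Those of the block and of the sign-flip test measure the spread of the changes within clones. The interaction without a block took the libraries of a clone as independent.

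The members, the lists of other genes and the tests were chosen with earlier results of these data known. Full values were given to members at an adjusted p under 0.05 (at most 6 a comparison), to the 3 with the largest absolute change, and to CDKN1A, CCND1, MKI67 and PCNA. Other members with values were chosen after their values were seen. The edgeR fits without a block were tested on simulated data, drawn independently for each library with no clone effect. The block and DESeq2 fits were not tested in this way. Promoters were taken from a RefSeq table, and AURKA, BIRC5, CCND1, CCNE2, CDK2, FOXM1, MCM4, MCM5, TPX2, TTK and UBE2C had no entry. Results for some genes, lists and motifs are not reported here.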

Additional observations from a re-analysis of the deposited data

Results flagged for a closer look

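Dixon's test was applied on the log2 scale in groups of 5 libraries. In 4 of 68 sets of values, a library's gap to its nearest neighbour, divided by the range, exceeded the 95% critical value of 0.71. Chance gives about 1 in 20 such sets, here 3.4. CDKN1A in untreated WT clone 4 stood at 134 CPM, and the nearest library of its group at 245 CPM. KIF20A in treated WT clone 1 stood at 36.7 CPM, and the nearest at 55.3 CPM. The median log2 deviation of the replication genes in untreated KO clone 2 was 0.21, and the nearest was 0.05. That of the mitotic genes in untreated WT clone 2 was -0.053, and the nearest was 0.13. Between WT and KO clones, no member's IFNγ response differed at an adjusted p under 0.05, nor did that of any of 21052 tested genes. The standard errors for the members leave room for differences as large as most of the responses. The fit thus does not show that the responses were alike.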

How the results depend on the processing

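Of 551 alternative values for the named genes, 498 kept their direction and side of the threshold, 22 lost and 16 gained a call, and 15 reversed, all of uncalled values. The cause of these shifts was not tested unless stated. For IFNγ in WT clones, members past the study's cut-offs numbered 1 with library totals (KIF20A), and that scaling moved the median of the members to -0.15. The count at an adjusted p under 0.05 was 29 with the replicate block, which takes the spread between clones out of the error, and 4 to 6 with a clone left out. For IFNγ in KO clones this count was 15 with the replicate block, 22 with KO clones 4 and 5 exchanged, 6 in the block of the other 3 KO clones, 5 with all 20 libraries fitted together, and 0 to 3 with a clone left out. For the difference between the responses, the block called 0 members, as without it. Between WT and KO clones it also called 0, but there it paired different clones by number alone. Those numbers do not correlate, so that fit is no check on the comparison. DESeq2 called 10 of 49 members in WT clones, beside 3276 of 19522 genes, and 4 of 49 in KO clones, beside 2785 of 19385 genes. With a clone left out, CDKN1A ranged from -0.12 to 0.021 for IFNγ in WT and from -0.30 to 0.028 in KO clones, and from -0.086 to 0.23 for the difference between the responses. MKI67 ranged from -0.041 to 0.25 for that difference. Between WT and KO clones, CCND1 ranged from -0.069 to 0.25 untreated, and CDKN1B from -0.63 to 0.026 and PCNA from -0.054 to 0.20 treated. DESeq2 shrinkage gave differences between the responses of -0.011 for CDKN1A and -0.044 for MKI67. Depth limits the members little, apart from CDKN2A, and the 5 clones a group set the precision.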
